A study of Mus musculus with 12 samples.

Results

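The genes described here are 8 genes of cholesterol synthesis, of 32416 gene symbols in the expression table: Hmgcs1, Idi1, Fdps, Fdft1, Sqle, Lss, Cyp51 and Insig1. They were chosen by name, though with earlier results of these data known, and all 8 were found and passed every filter on low values. Of these, 7 encode enzymes of the pathway, and Insig1 encodes a protein of the endoplasmic reticulum that holds the pathway in check. They were measured in bulk polyA RNA of 12 tumours that B16 cells, a mouse melanoma line, formed under the skin of C57BL/6 mice. The groups were 4 Aoah and 4 Vector tumours of B16mhgp100 cells, and 2 Aoah and 2 Vector tumours of B16F10 cells. In Aoah tumours the gene Aoah was over-expressed, whose product acyloxyacyl hydrolase is an enzyme that strips fatty acids from bacterial lipopolysaccharide and so inactivates it, and Vector tumours carried the empty vector. All B16mhgp100 mice received anti-PD1, an antibody that blocks a T cell checkpoint receptor, from day 10. All B16F10 mice received anti-PD1 with anti-CTLA4, which blocks a further checkpoint receptor, from day 6. Each antibody dose was 200 µg, 4 doses were given at 2 per week, and tumours were collected 1 day after the last. No untreated arm is among these libraries, the labels used here state no mouse age, promoter of the transgene or clone, and cell line, antibodies and first day change together.

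Cells build cholesterol from acetyl-CoA through mevalonate, isoprenoids, squalene and lanosterol. The transcription factor SREBP-2, the product of Srebf2, switches on nearly all genes of the route when sterol in the endoplasmic reticulum runs low. When sterol is plentiful, the INSIG proteins keep SREBP and its escort SCAP in that membrane, and transcription of these genes drops together. Tumour cells use the route for membranes and for lipid anchors on signalling proteins.

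Levels are in TPM, a measure of abundance per unit of gene length, so levels of different genes can be set side by side. Per library, 13775 to 14791 genes were at 1 TPM or more. The TPM values keep no read depth, and how deeply each library was read is unknown. Aoah itself stood at 17.9, 22.5, 13.96 and 3.91 TPM in B16mhgp100 Aoah tumours 1 to 4, against 7.58, 0.89, 2.43 and 1.57 TPM in the Vector tumours. It stood at 21.75 and 23.7 TPM in the B16F10 Aoah tumours, against 1.49 and 0.75 TPM in the B16F10 Vector tumours. B16mhgp100 Aoah 4 thus lay within the range of its Vector tumours. That library also stood apart from the rest, and differences between Aoah and Vector tumours of B16mhgp100 are given with and without it. Its median correlation with the others was 0.899, against 0.959 to 0.978 for the other 11. Its keratinocyte markers summed to 5567 TPM and its skeletal muscle markers to 5499 TPM, while the other 11 libraries had at most 30.4 TPM of keratinocyte markers and at most 758 TPM of muscle markers. In B16F10 Vector 2, mitochondrial transcripts made up 10.4% of TPM, against 2.77% to 6.38% in the other libraries. All 8 melanocyte markers were found in every library. In bulk tissue, fewer cells of a type and less RNA per cell cannot be told apart.

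The promoters of Hmgcs1, Insig1 and Cyp51 are shown because these are the members with the smallest p-values between Aoah and Vector tumours of B16F10. Each window runs from 250 bases before to 50 bases after the start of the gene in RefSeq, build GRCm38.p6, and is written along the gene. The Hmgcs1 window is chr13:119690101-119690400 on the plus strand, the Insig1 window is chr5:28071162-28071461 on the plus strand, and the Cyp51 window is chr5:4104648-4104947 on the minus strand. Capitals mark matches, on either strand, to the core of the sterol regulatory element (TCACNCCAC), to the CCAAT box (CCAAT, or ATTGG on the other strand) and to the GC box (GGGCGG, or CCGCCC on the other strand).
Hmgcs1: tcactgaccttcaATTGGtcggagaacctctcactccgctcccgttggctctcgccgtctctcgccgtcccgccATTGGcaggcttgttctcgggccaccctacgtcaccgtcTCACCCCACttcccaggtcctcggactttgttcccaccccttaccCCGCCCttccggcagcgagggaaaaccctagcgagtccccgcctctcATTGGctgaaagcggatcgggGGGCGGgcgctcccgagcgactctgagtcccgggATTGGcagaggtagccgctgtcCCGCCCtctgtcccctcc
Insig1: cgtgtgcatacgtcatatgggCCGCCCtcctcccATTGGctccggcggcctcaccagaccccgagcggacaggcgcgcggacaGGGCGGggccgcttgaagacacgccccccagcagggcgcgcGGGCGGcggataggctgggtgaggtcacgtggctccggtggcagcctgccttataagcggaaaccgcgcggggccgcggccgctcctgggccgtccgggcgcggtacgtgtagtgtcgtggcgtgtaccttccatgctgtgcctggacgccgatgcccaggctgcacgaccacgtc
Cyp51: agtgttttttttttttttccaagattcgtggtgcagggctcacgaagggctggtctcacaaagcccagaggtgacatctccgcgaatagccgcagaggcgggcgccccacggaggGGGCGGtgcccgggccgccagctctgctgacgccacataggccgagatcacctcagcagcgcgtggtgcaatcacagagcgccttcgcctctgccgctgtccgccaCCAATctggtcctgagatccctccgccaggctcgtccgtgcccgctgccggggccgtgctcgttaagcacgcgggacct
The Hmgcs1 window holds the sterol element core once, as TCACCCCAC from base -137 relative to the start, with 4 CCAAT boxes and 3 GC boxes. The Insig1 window holds 1 CCAAT box and 3 GC boxes, and the Cyp51 window holds 1 of each. Sequences of the Lss and Idi1 promoters were also found, so 5 of 8 members were searched. The sterol element core was in 1 of these 5 windows, against 1.24% of 32851 promoter windows of the same length. A CCAAT box was in 5 of 5, against 37.4% of all windows, and a GC box in 5 of 5, against 35.7%. A match is a string of letters and not a measured binding site, and a window without a match may hold a variant of the element.

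Fdps was the most abundant of the 8 genes in each of the 4 groups. It encodes farnesyl diphosphate synthase, which joins isoprenoid units into farnesyl diphosphate, the branch point to sterols and to protein prenylation. Its mean level was 376 ± 94.6 TPM in B16mhgp100 Aoah tumours and 426 ± 97.9 TPM in B16mhgp100 Vector tumours (SD, n = 4 each), and 524 ± 14.8 TPM in B16F10 Aoah tumours and 554 ± 48.1 TPM in B16F10 Vector tumours (SD, n = 2 each). It made up 41.3% to 55.8% of the summed level of the 8 genes in every library but B16mhgp100 Aoah 4, where it made up 66.7%. Next came Sqle, Cyp51, Insig1 and Hmgcs1, in an order that changed from group to group. Their 4 means lay between 59.5 and 98.9 TPM in B16mhgp100 Aoah tumours and between 71.7 and 128 TPM in B16mhgp100 Vector tumours. In B16F10 the means lay between 65.8 and 95.7 TPM in Aoah tumours and between 93.6 and 123 TPM in Vector tumours. Within these 4 genes, neighbours in the order overlapped from library to library in B16mhgp100. Idi1, Fdft1 and Lss were the 3 lowest genes in all 4 groups, with means between 29.4 and 65.6 TPM.

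**Figure D1:**
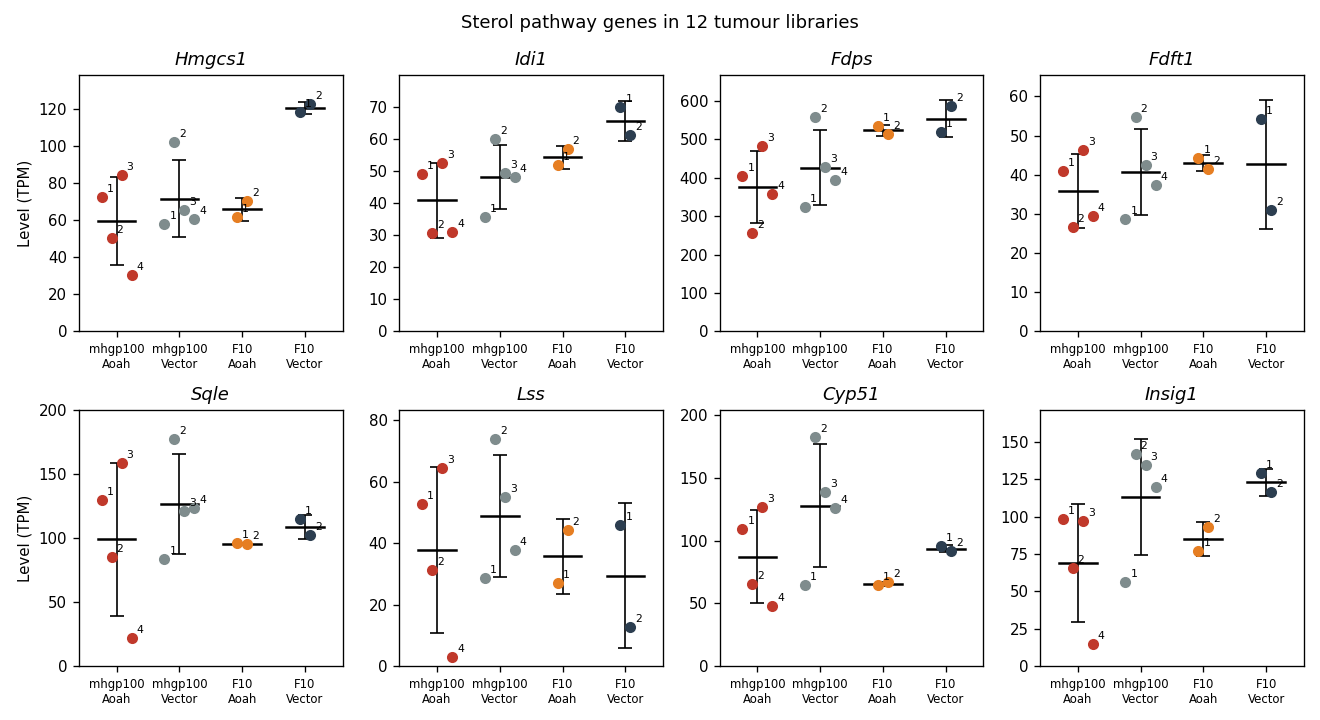
Level of each gene in TPM (vertical axis, from 0) in the 12 libraries, 1 panel per gene, with groups along the horizontal axis and replicate numbers beside the points. Bars give the mean and SD, and the B16F10 Vector tumours stand highest for Hmgcs1, at 118 and 123 TPM.

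In B16F10, Hmgcs1, Cyp51 and Insig1 gave the smallest p-values of the 8 genes, all with lower levels in Aoah tumours. None of the 8 passed the threshold, an adjusted p of 0.05 in limma's test over all 14533 genes kept, where 50 genes (0.344%) did. At an unadjusted p of 0.05, 3 of 8 members passed, against 18.2% of all genes. The difference was below 0 for 6 of 8 members, against 48.4% of all genes. In 5 of 8 members both Aoah tumours lay below both Vector tumours, against 22.6% of all genes. With 2 tumours against 2, an exact permutation test cannot give a p below 0.333.

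Hmgcs1 (ENSMUSG00000093930) encodes the cytosolic HMG-CoA synthase, which makes the precursor of mevalonate. It stood at 61.6 and 70.4 TPM in the B16F10 Aoah tumours, against 118 and 123 TPM in the B16F10 Vector tumours. Both Aoah tumours lay far below both Vector tumours, with a gap several times the difference within either group. The difference on the log2(TPM + 1) scale was -0.86 (SE 0.16, 95% interval -1.27 to -0.45), with an unadjusted p of 0.00248 and an adjusted p of 0.104 in limma's test. Over the alternative settings its adjusted p ran from 0.0616 to 0.983, and its difference kept within -0.96 to -0.77 when each tumour was left out in turn. In the authors' deposited table, the log2 fold change of Hmgcs1 in B16F10 was -0.89 (SE 0.22) with an adjusted p of 0.00175, a table in which 8.53% of 14328 genes had an adjusted p below 0.05. The test used here and the authors' deposited table thus put Hmgcs1 on different sides of the threshold.

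Cyp51 (ENSMUSG00000001467) encodes lanosterol 14-alpha-demethylase, the first enzyme after lanosterol. It stood at 64.6 and 66.9 TPM in the B16F10 Aoah tumours, against 95.5 and 91.7 TPM in the B16F10 Vector tumours. The groups did not overlap, and the difference was -0.50 (SE 0.16, 95% interval -0.90 to -0.11, adjusted p = 0.195 in limma's test). In the authors' deposited table its log2 fold change was -0.53, with an adjusted p of 0.0949.

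Insig1 (ENSMUSG00000045294), the sterol-sensing brake described above and itself a target of SREBP, stood at 77.3 and 93.25 TPM in the B16F10 Aoah tumours, against 129.5 and 117 TPM in the B16F10 Vector tumours. These groups also lay apart. The difference was -0.53 (SE 0.18, 95% interval -0.97 to -0.09, adjusted p = 0.212 in limma's test), and the authors' deposited table gave -0.55 with an adjusted p of 0.0871.

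The other 5 enzymes differed less in B16F10, or less evenly. Idi1 (ENSMUSG00000058258), which isomerises the isoprenoid unit, stood at 51.7 and 56.8 TPM in Aoah tumours, against 70.05 and 61.1 TPM in Vector tumours, a difference of -0.27 (95% interval -0.71 to 0.18). Sqle (ENSMUSG00000022351), squalene epoxidase, which opens the oxygen-dependent part of the route, stood at 96.1 and 95.3 TPM in Aoah tumours, against 115 and 102 TPM in Vector tumours, a difference of -0.18 (95% interval -0.58 to 0.22). In both genes the 2 groups lay apart by less than the difference between the Vector tumours. Fdps (ENSMUSG00000059743) stood at 535 and 514 TPM in Aoah tumours, against 519.7 and 588 TPM in Vector tumours, so that the groups overlapped and the difference was -0.08 (95% interval -0.44 to 0.28). Fdft1 (ENSMUSG00000021273), squalene synthase, which commits farnesyl diphosphate to sterols, stood at 44.35 and 41.5 TPM in Aoah tumours, between the 54.25 and 31.1 TPM of Vector tumours 1 and 2. Lss (ENSMUSG00000033105), lanosterol synthase, which folds the sterol rings, stood at 27.1 and 44.3 TPM in Aoah tumours, against 46.0 and 12.7 TPM in Vector tumours 1 and 2. For these 2 genes B16F10 Vector 2 set the sign: the difference was 0.06 for Fdft1 and 0.49 for Lss over all 4 tumours, and without that library it was -0.33 for Fdft1 and -0.40 for Lss. The adjusted p-values of these 5 genes ran from 0.475 to 0.938 in limma's test.

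**Figure D2:**
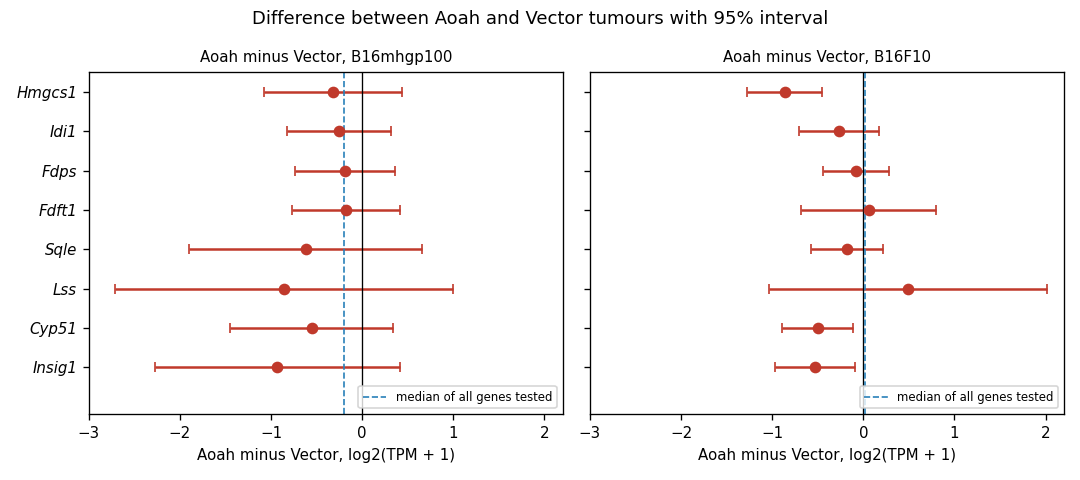
Difference between Aoah and Vector tumours on the log2(TPM + 1) scale (horizontal axis) for each gene (vertical axis), with B16mhgp100 in the left panel and B16F10 in the right. Points are differences of means, bars their 95% intervals from limma, and the dashed line is the median of all genes tested; the intervals of Hmgcs1, Cyp51 and Insig1 in B16F10 lie below 0.

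In B16mhgp100, every one of the 8 genes had a lower mean of log2(TPM + 1) in Aoah than in Vector tumours, and none passed the threshold. Thus 0 of 8 had a difference above 0, against 30.0% of all 14228 genes kept, and the median difference was -0.44 over the 8 members and -0.20 over all genes. No gene at all passed the adjusted threshold in this model (0% called), and at an unadjusted p of 0.05, 2.46% of genes passed and 0 of 8 members. The groups overlapped for all 8 members, whereas 5.88% of all genes had groups apart. The library Aoah 4 carried much of the difference: without it the 8 differences ran from -0.31 to 0.05 and the median over all genes was -0.02.

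Insig1 gave the largest difference of the 8 in this model. It stood at 98.4, 65.5, 97.3 and 14.6 TPM in B16mhgp100 Aoah tumours 1 to 4, against 56.4, 142, 135 and 119.6 TPM in Vector tumours 1 to 4. All 4 Aoah tumours lay below 3 of the Vector tumours, while Vector 1 lay below 3 of the Aoah tumours. The difference was -0.93 (SE 0.59, 95% interval -2.28 to 0.42), with an adjusted p of 0.694 in limma's test and a p of 0.200 in an exact 2-sided permutation test of 70 arrangements, whose smallest possible p is 0.0286. Without Aoah 4 it was -0.31.

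Lss spread most widely among the tumours. It stood at 52.7, 31.4, 64.4 and 2.90 TPM in B16mhgp100 Aoah tumours 1 to 4, against 28.8, 73.7, 55.0 and 37.8 TPM in Vector tumours 1 to 4. Aoah 4 was at 5.86% of the mean of the other 3 Aoah tumours, and those 3 lay inside the range of the Vector tumours. The difference was -0.86 (95% interval -2.72 to 0.99) with Aoah 4 and 0.05 without it.

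Sqle stood at 129.97, 85.1, 159 and 22.1 TPM in B16mhgp100 Aoah tumours 1 to 4, against 83.4, 178, 121 and 124 TPM in Vector tumours 1 to 4. Aoah 4 was again far below the rest, and the difference of -0.62 became -0.02 without it. Cyp51 stood at 109, 65.05, 127 and 48.0 TPM in Aoah tumours 1 to 4, against 64.2, 182, 138 and 126 TPM in Vector tumours 1 to 4. The Vector tumours other than Vector 1 were near or above the highest Aoah tumour, and the difference was -0.55, or -0.31 without Aoah 4.

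The remaining 4 enzymes overlapped almost fully. Hmgcs1 stood at 72.5, 50.4, 84.5 and 30.7 TPM in Aoah tumours 1 to 4, against 57.95, 103, 65.8 and 60.5 TPM in Vector tumours 1 to 4, a difference of -0.32, or -0.04 without Aoah 4. Idi1 ranged from 30.7 to 52.5 TPM in Aoah tumours and from 35.6 to 59.99 TPM in Vector tumours, Fdft1 from 26.6 to 46.4 TPM in Aoah tumours and from 28.6 to 54.8 TPM in Vector tumours, and Fdps from 258 to 484 TPM in Aoah tumours and from 324.5 to 558 TPM in Vector tumours. The differences of these 3 genes were between -0.25 and -0.18, and without Aoah 4 they were -0.14 for Idi1, -0.10 for Fdft1 and -0.18 for Fdps. Scaling the libraries by median of ratios moved the median of all genes from -0.20 to -0.02, and under it Fdft1 and Fdps turned to 0.03 and 0.02. Exact permutation p-values of the 8 genes ran from 0.200 to 0.543. In the authors' deposited table for B16mhgp100 the adjusted p-values of the 8 genes ran from 0.812 to 0.984, and 0.0146% of 20534 genes were below 0.05.

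Within the B16mhgp100 groups the 8 genes moved together from tumour to tumour. Vector 2 had the highest level of its group for 8 of 8 genes and Vector 1 the lowest for 8 of 8. This was not particular to the 8 genes. Vector 2 was also highest for 10 of 13 other sterol enzymes and 9 of 9 fatty acid synthesis genes, and Vector 1 lowest for 11 and 7 of these. Of 6 genes of SREBP control, Vector 2 was highest for 4 and Vector 1 lowest for 4. Of 6 genes of cholesterol transport and esterification these were 3 and 3. The 7 genes of cholesterol efflux and oxysterols went the other way, with Vector 1 highest for 6 and Vector 2 lowest for 5. The share over all genes is not given. Among Aoah tumours, Aoah 3 was highest for 7 of 8 genes and Aoah 1 for Insig1, and the lowest was Aoah 4 for 5 genes and Aoah 2 for 3. The summed level of the 8 genes was 957, 612, 1115 and 536 TPM in Aoah tumours 1 to 4, against 679, 1351, 1035 and 948 TPM in Vector tumours 1 to 4. The mean sum of the Aoah tumours was 805 ± 276 TPM, against 1003 ± 277 TPM for the Vector tumours (SD, n = 4 each), so the means lay closer together than 1 SD of either group. In B16F10 it was 957 and 982 TPM in Aoah tumours, against 1149 and 1126 TPM in Vector tumours. Between pairs of the 8 genes, Pearson's r of log2(TPM + 1) over the 12 libraries ran from 0.22 for Fdps and Lss to 0.94 for Sqle and Insig1, with a median of 0.68 over 28 pairs. Without Aoah 4 it ran from -0.02 for Hmgcs1 and Lss to 0.93 for Fdps and Idi1, with a median of 0.65 over 11 libraries. These correlations share libraries and the TPM total.

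**Figure D3:**
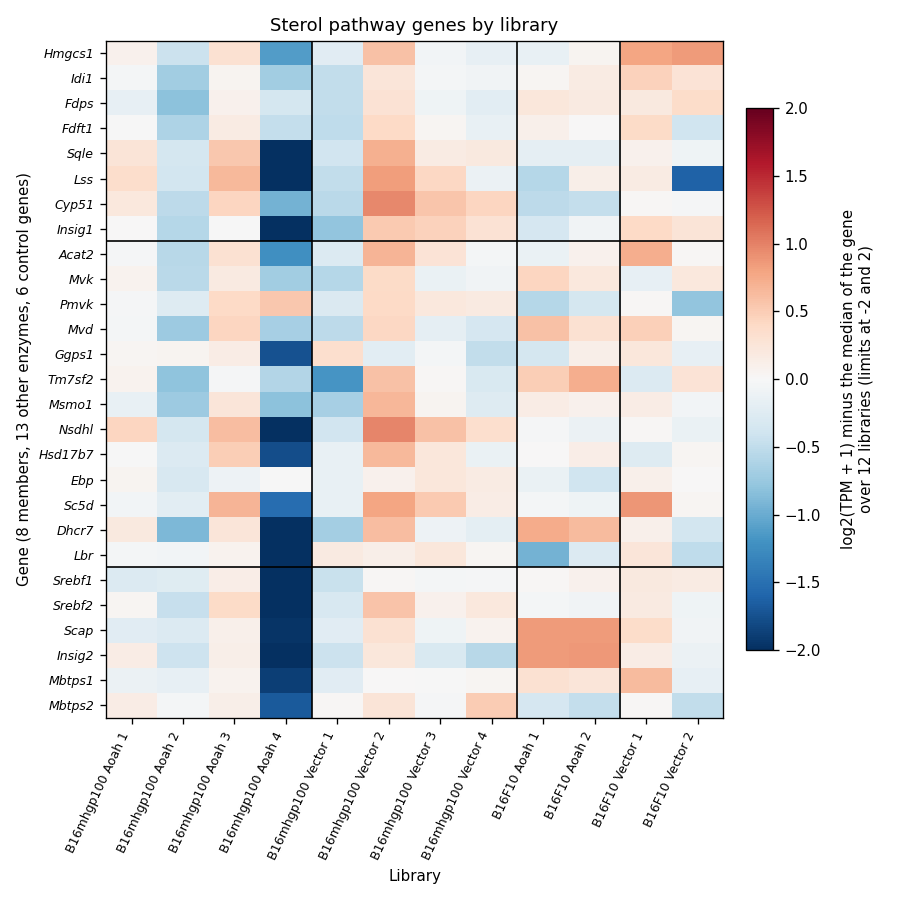
Colour gives log2(TPM + 1) minus the median of the gene over 12 libraries, limited at -2 and 2, for the 8 members (top block), 13 other sterol enzymes (middle) and 6 genes of SREBP control (bottom), with libraries along the horizontal axis by group. B16mhgp100 Aoah 4 is low for nearly all rows, and Vector 2 is high and Vector 1 low for the 8 members.

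The sums of macrophage, fibroblast and adipocyte markers mostly moved the other way within B16mhgp100. The 7 macrophage markers summed to 753, 2026, 196 and 1399 TPM in Aoah tumours 1 to 4, against 1021, 187, 472 and 386 TPM in Vector tumours 1 to 4. The tumour with the lowest macrophage sum had the highest member sum in each group, Aoah 3 and Vector 2. Vector 1 had the highest macrophage sum of its group and the lowest member sum. Fibroblast markers summed to 676, 2090, 92.7 and 590 TPM in Aoah tumours 1 to 4, against 837, 115, 300 and 371 TPM in Vector tumours 1 to 4. Adipocyte markers summed to 83.8, 44.0, 21.95 and 391 TPM, against 145, 17.85, 74.8 and 86.0 TPM. Both sums were also lowest in Aoah 3 and Vector 2. Muscle markers were highest in Aoah 4 at 5499 TPM and in Vector 1 at 758 TPM. The 8 melanocyte markers summed to 23895, 16176, 22792 and 7967 TPM in Aoah tumours 1 to 4. In Vector tumours 1 to 4 they summed to 17871, 29274, 23885 and 22712 TPM, in the same order as the member sums. Among Aoah tumours the order differed from that of the member sums only between Aoah 1 and Aoah 3. In B16F10 the macrophage sum was 960 and 845 TPM in Aoah tumours, against 509 and 478 TPM in Vector tumours, and the 6 T cell markers summed to 50.5 and 62.0 TPM, against 7.05 and 2.33 TPM. Fibroblast markers summed there to 197 and 126 TPM in Aoah tumours, against 429 and 335 TPM in Vector tumours. Adipocyte markers summed to 25.4 and 19.9 TPM in Aoah tumours, against 33.9 and 102 TPM in Vector tumours. Both lists were thus lower in both B16F10 Aoah tumours, as Hmgcs1, Cyp51 and Insig1 were, while macrophage and T cell sums were higher. Within B16mhgp100 both lists instead moved mostly against the members, as given above. The melanocyte sum in B16F10 was 30234 and 29140 TPM in Aoah tumours, against 19193 and 22399 TPM in Vector tumours. It was thus higher in both B16F10 Aoah tumours, while the member sum was lower in both. No macrophage, melanocyte or T cell marker was at 0 in any library. Markers of sebocytes, skin cells with strong lipid synthesis, summed to between 0.27 and 2.64 TPM, with up to 3 of 5 at 0. The part of these cell types in the levels of the 8 genes was not tested.

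**Figure D4:**
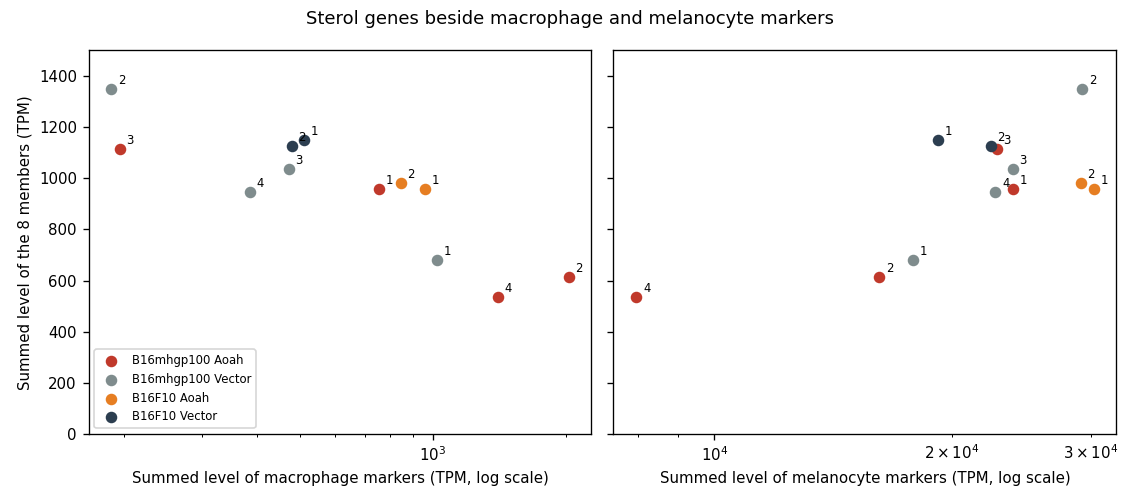
Summed level of the 8 genes in TPM (vertical axis, from 0) against the summed level of macrophage markers (left) and of melanocyte markers (right) in TPM on log axes, 1 point per library with its replicate number. The B16mhgp100 libraries with the lowest macrophage sums, Vector 2 at 187 TPM and Aoah 3 at 196 TPM, have member sums of 1351 and 1115 TPM.

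The deviation of Aoah 4 differed between the 8 genes. Its median on the log2 scale was -1.05 over the 8 genes, near the -0.92 over 9849 genes with a mean of at least 5 TPM. Against the mean of Aoah 1 to 3, Aoah 4 had 93.6% of Fdps, 77.5% of Fdft1 and 70.2% of Idi1. It had 47.9% of Cyp51 and 44.3% of Hmgcs1, but 17.7% of Sqle, 16.8% of Insig1 and 5.86% of Lss. Fdps has the shortest and Lss the longest of the 8 transcripts, with 1382 and 4667 bases for the longest coding transcript of GENCODE vM21. Between these the order did not follow length. Insig1 and Sqle, with 2697 and 2758 bases, were far lower in Aoah 4 than Idi1 and Fdft1, with 3027 and 3698 bases. Across 9849 genes with a mean of at least 5 TPM, the deviation of Aoah 4 was lower for longer transcripts, with a Spearman rho of -0.453, and across the 8 members rho was -0.286. In B16F10, the deviation of Vector 2 from Vector 1 had a rho of -0.356 across the same genes, and Lss and Fdft1 were the members with the lowest values there, -1.78 and -0.78 on the log2 scale. The part of RNA quality in these levels was not tested.

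**Figure D5:**
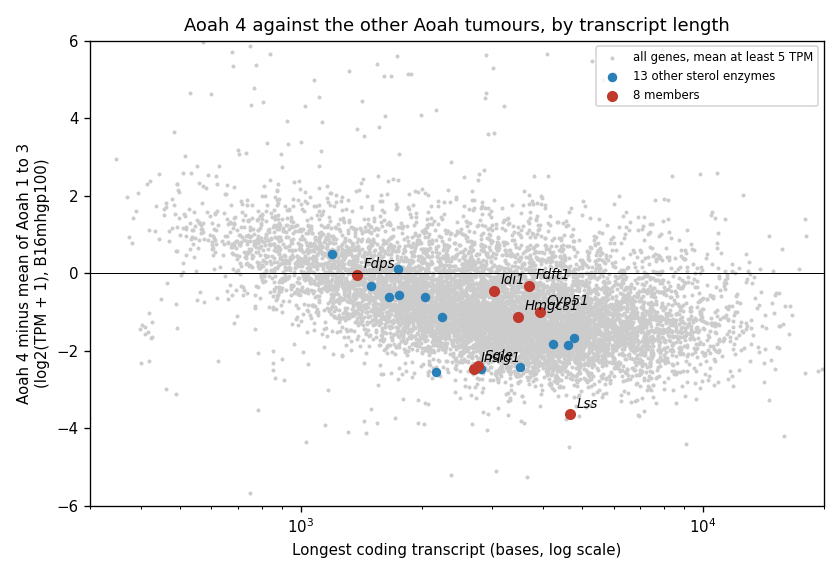
Deviation of B16mhgp100 Aoah 4 from the mean of Aoah 1 to 3 on the log2(TPM + 1) scale (vertical axis) against the length of the longest coding transcript in bases (log horizontal axis), for 9849 genes (grey), 13 other sterol enzymes (blue) and the 8 members (red). Fdps, the shortest member, lies near 0 and Lss, the longest, at -3.64, while the short Insig1 lies at -2.47 and the longer Fdft1 at -0.32.

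Between the models, which also differ in antibodies and first day, none of the 8 genes passed the threshold. Among Vector tumours, B16mhgp100 stood below B16F10 with groups apart for 2 of 8 genes, against 12.7% of all 16556 genes. These were Hmgcs1, with a difference of -0.78 (95% interval -1.59 to 0.03, adjusted p = 0.429 in limma's test), and Idi1, with -0.46. At the adjusted threshold 1.88% of all genes were called, and 0 of 8 members and 1994 of the 16556 genes had an unadjusted p below 0.05. Among Aoah tumours, groups were apart and lower in B16mhgp100 for 1 of 8 genes, against 18.9% of all genes. That gene was Fdps, with a difference of -0.51 (95% interval -1.10 to 0.07, adjusted p = 0.323), and 3.70% of all genes were called. At an unadjusted p of 0.05 these were 0 of 8 members and 19.4% of all genes. Without Aoah 4, the difference of Fdps was -0.50 (adjusted p = 0.201 in limma's test). That of Hmgcs1 among Vector tumours, whose spread is estimated over all libraries, then had an adjusted p of 0.0623 in limma's test. In either comparison 0 of 8 members passed, and the counts over all genes in that fit are given below. The Aoah effect itself was compared as B16mhgp100 minus B16F10. The 8 differences ran from -1.35 for Lss (95% interval -4.36 to 1.66) to 0.54 for Hmgcs1 (95% interval -0.60 to 1.68), with adjusted p-values between 0.850 and 0.996, while 0.0302% of genes were called. At an unadjusted p of 0.05, 0 of 8 members and 5.65% of genes passed. Without Aoah 4 it was -0.44 for Lss and 0.82 for Hmgcs1 (adjusted p = 0.358 in limma's test), and the other 6 lay between -0.16 and 0.21. So the lower Hmgcs1 in B16F10 Aoah tumours was not shown to differ from the effect in B16mhgp100.

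The other genes of sterol and lipid metabolism came in 5 lists of 41 genes. In B16F10, 0 of 13 other sterol enzymes passed the threshold, 6 lay above 0 and 7 below, and the median difference was -0.02, against 0.02 over all genes and -0.22 over the 8 members. Dhcr7, which encodes the enzyme of the last step to cholesterol, stood at 193 and 180.0 TPM in Aoah tumours, against 124 and 88.9 TPM in Vector tumours, a difference of 0.82 (adjusted p = 0.144 in limma's test). The authors' deposited table gave Dhcr7 0.81 with an adjusted p of 0.00411, a sign opposite to that of Hmgcs1. Tm7sf2, which encodes a reductase acting after lanosterol, differed by 0.61 (adjusted p = 0.291).

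Among the 6 genes of SREBP control, 0 passed in B16F10. Insig2, which encodes the other INSIG protein, stood at 282 and 287 TPM in Aoah tumours, against 174 and 144 TPM in Vector tumours. The groups lay apart, with Aoah tumours higher by 0.84 (95% interval 0.44 to 1.25, adjusted p = 0.104 in limma's test), and the authors' deposited table gave 0.83 with an adjusted p of 0.00149. Insig1 and Insig2 thus differed with opposite signs. The ratio of Insig1 to Insig2 TPM was 0.274 and 0.325 in B16F10 Aoah tumours, against 0.746 and 0.810 in B16F10 Vector tumours. In B16mhgp100 the ratio lay between 0.559 and 0.573 in Aoah tumours, Aoah 4 included, and between 0.487 and 1.12 in Vector tumours. Scap, the escort of SREBP, stood at 135 and 135 TPM in B16F10 Aoah tumours, against 96.5 and 70.8 TPM in B16F10 Vector tumours, a difference of 0.70 (adjusted p = 0.171 in limma's test), and the authors' deposited table gave 0.69 with an adjusted p of 0.0154. Srebf2 stood at 140.05 and 137 TPM in B16F10 Aoah tumours, inside the 162 and 135 TPM of the B16F10 Vector tumours.

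Of 9 fatty acid synthesis genes, 0 passed in B16F10, 3 lay above 0 and 6 below, against 48.4% of all genes below 0. Elovl6, a fatty acid elongase, stood at 4.45 and 4.90 TPM in Aoah tumours, against 16.2 and 9.60 TPM in Vector tumours, a difference of -1.25 (adjusted p = 0.149 in limma's test), and the authors' deposited table gave -1.45 with an adjusted p of 4.43e-05. Scd2, a stearoyl-CoA desaturase, differed by -0.53 (adjusted p = 0.183). Of the 41 genes in these 5 lists, Elovl6 was the 1 gene past the threshold in any comparison: among Aoah tumours it was higher in B16mhgp100 than in B16F10 by 1.01 (adjusted p = 0.0493 in limma's test). Without Aoah 4, the same comparison of Aoah tumours put 5 of the 41 genes past the threshold: Me1 (1.51), Elovl6 (1.10), Fasn (-0.97), Scap (-0.99) and Insig2 (-0.91). Of all 16261 genes kept in that fit 3448 passed. Among Vector tumours that fit put Fasn (-0.90), Me1 (0.61) and Ch25h (0.76) past it, with 2113 of the 16261 genes. In both comparisons a smaller share of the 41 genes than of all genes passed. Of 7 genes of cholesterol efflux and oxysterols, 0 passed in B16F10, 5 lay above 0 and 2 below. Ch25h, which makes 25-hydroxycholesterol, an oxysterol that silences the SREBP route, stood at 6.40 and 6.65 TPM in B16F10 Aoah tumours, against 2.26 and 1.45 TPM in B16F10 Vector tumours, a difference of 1.41 (adjusted p = 0.109 in limma's test), and the authors' deposited table gave 1.81 with an adjusted p of 0.0306. In B16mhgp100, Ch25h stood at 6.59, 7.57, 4.68 and 6.75 TPM in Aoah tumours 1 to 4, against 4.45, 3.09, 3.36 and 4.41 TPM in Vector tumours 1 to 4. All 4 Aoah tumours lay above all 4 Vector tumours there, with a difference of 0.61 (95% interval 0.12 to 1.10, adjusted p = 0.694). Nr1h2, a sterol-sensing nuclear receptor gene, differed by 0.70 in B16F10 (adjusted p = 0.143). The 6 genes of transport and esterification gave adjusted p-values of at least 0.311 in B16F10, with the smallest p-values for Nceh1 (0.46), a cholesterol ester hydrolase, and Stard4 (-0.50), a sterol carrier. In the authors' deposited table for B16F10, 5 of the 41 genes had an adjusted p below 0.05, against 8.53% of all 14328 genes with one. They were Dhcr7, Insig2, Scap, Elovl6 and Ch25h.

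In B16mhgp100, 0 genes of the 5 lists passed the threshold. Of all 14228 genes kept, 30.0% lay above 0, and the median difference over all genes was -0.20. Of 13 other sterol enzymes 12 lay below 0, with a median of -0.31, as did 6 of 6 genes of SREBP control, 9 of 9 of fatty acid synthesis and 5 of 6 of transport and esterification, while 5 of 7 efflux and oxysterol genes lay above 0. Among these enzymes the smallest p was that of Acat2, with -0.54 (adjusted p = 0.694 in limma's test), followed by Lbr, which encodes a nuclear membrane protein with sterol reductase activity, with -0.76. Among SREBP control genes they were those of Scap (-0.60) and Mbtps2 (-0.56), which encodes a protease that frees SREBP. Elovl6 differed by -0.46 and Acaca, which encodes acetyl-CoA carboxylase, by -0.89. Npc1, which encodes a lysosomal cholesterol carrier, differed by -0.57 and Lipa, the lysosomal acid lipase gene, by -0.34. Nr1h3, a sterol-sensing nuclear receptor gene, differed by 0.55. The groups overlapped for each of these genes, and their adjusted p-values were 0.694. Without Aoah 4, again 0 genes of the 5 lists passed, and the differences were smaller for most. The median was then -0.09 for the other sterol enzymes, with 10 of 13 below 0, and -0.07 for SREBP control, with 5 of 6 below 0. It was -0.07 for fatty acid synthesis, with 6 of 9 below 0, and 0.04 for transport and esterification, with 2 of 6 below 0. All 7 efflux and oxysterol genes lay above 0, with a median of 0.42. The median over all genes in that fit, given above, was near 0, and its share of genes above 0 is not given. Acat2 stood at -0.25 and Acaca at -0.28 in that fit, Scap at -0.15, and Ch25h at 0.58. Lbr stood at -0.15, Mbtps2 at -0.12, Npc1 at -0.06 and Lipa at -0.13, each much nearer 0 than with Aoah 4. Elovl6 stood at -0.37 and Nr1h3 at 0.58.

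The genes whose pattern was most like the mean log2(TPM + 1) of the 8 members were sought among 10107 genes with a mean of at least 5 TPM. The members themselves, predicted gene models and genes named only by a clone or sequence were left out of these. By Pearson's r over the 12 libraries they were Cep135 (0.97), Acat2 (0.96), Gtf3a, L3mbtl2, Fads2, Srebf2 (0.95), Scd2, Nsdhl, Sc5d and Fgd4 (0.94). High r was common over the 12 libraries: Lbr, at rank 1229, still had 0.80, and Tm7sf2, at rank 4896, had 0.56. Without Aoah 4 their r was 0.29 for Lbr and 0.59 for Tm7sf2. Of the 10 genes with the highest r, Acat2, Nsdhl and Sc5d are on the list of other sterol enzymes. Fads2 and Scd2 are on the list of fatty acid synthesis, and Srebf2 encodes SREBP-2. Without Aoah 4, over 11 libraries, Srebf2 came first with r = 0.95 and Acat2 next with 0.93, and 7 of the 10 genes stayed among the first 10. The list was drawn from the same libraries and carries no test.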

How the data were processed

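Groups were taken from the sample titles. The labels do not tie tumours to mice, and a p-value here speaks of these tumours alone. Expression was deposited as log2 values, from which TPM was recovered by removing a pseudocount of 1. Per the submitters' processing notes, the authors used RSEM and DESeq2 with genome build mm39, with no version given. RSEM shares reads between similar genes, and strand is not known to be kept. The authors also deposited a table per model with the mean normalised count (a signal), log2 fold changes, standard errors, a score for each test, and raw and adjusted p-values. Its signs matched Aoah minus Vector in TPM for 98.7% of 297 B16mhgp100 genes and 99.9% of 1009 B16F10 genes that differed by more than 1 on the log2 scale. A repertoire table was not used, and 1 gene of the list of other sterol enzymes is not reported here.

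Tests ran in R 4.3.3 on log2(TPM + 1) by limma 3.58.1, with a mean-variance trend, 2-sided, and Benjamini-Hochberg adjustment over all genes kept. Fold changes on this scale are too small for genes at low levels. Kept were genes with at least 1 TPM in as many libraries as the smallest group held. Each model was fitted alone, and contrasts between models came from 1 fit of 12 libraries. Single genes were also tested by exact permutation. The fit was tested on simulated data. Members and lists were chosen with earlier results of these data known. Named genes are the 8 members, Aoah, the genes of each lipid list past the threshold or the 2 with the smallest p, and the 10 genes most like the members. Alternatives were a pseudocount of 0.1, no filter, median-of-ratios scaling, a replicate block, a joint fit, and leaving out each tumour. The values of the lipid lists and the exact permutation tests without Aoah 4 were added after seeing the data. Promoters are RefSeq's, in GRCm38.p6, and no coordinates of the files' own build are given.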

Additional observations from a re-analysis of the deposited data

How the results depend on the processing

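No member passed the threshold in any of the 5 comparisons under any alternative. The lowest adjusted p in limma's test was 0.555 for Aoah minus Vector in B16mhgp100 (13 alternatives), 0.0616 in B16F10 (9), 0.0623 between Vector tumours (16), 0.198 between Aoah tumours (16) and 0.358 for the difference of the Aoah effect (16). Of 560 recomputed log2 differences 529 kept their direction and 31 turned, in 20 of 40 differences, and the cause was not tested. Under median-of-ratios scaling, Fdft1 and Fdps turned to 0.026 and 0.019 in B16mhgp100, in the limma fit and in the permutation test alike, and the difference of the Aoah effect turned to 0.10 for Fdps and 0.16 for Cyp51.

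Leaving out each tumour gave ranges that crossed 0 as follows. For Aoah minus Vector, Lss in B16mhgp100 ran from -1.31 to 0.048, and in B16F10 Fdft1 ran from -0.33 to 0.45, Fdps from -0.17 to 0.012 and Lss from -0.40 to 1.38. For the difference of the Aoah effect, Sqle ran from -0.77 to 0.16, Fdft1 from -0.63 to 0.16, Fdps from -0.25 to 0.056, Idi1 from -0.12 to 0.13, Cyp51 from -0.35 to 0.20 and Insig1 from -0.70 to 0.21. Between Vector tumours, Sqle ran from -0.0089 to 0.35, Fdft1 from -0.44 to 0.34, Lss from -0.0048 to 1.77 and Insig1 from -0.34 to 0.10. Between Aoah tumours, Hmgcs1 ran from -0.44 to 0.038, Sqle from -0.60 to 0.33, Lss from -0.91 to 0.44 and Insig1 from -0.88 to 0.012. Where a tumour left out leaves 1 in its group, that tumour is assumed to vary like the others. The exact permutation test without Aoah 4, chosen after seeing the data, gave Lss a log2 difference of 0.048 with a p of 0.943.

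The replicate block moved no member across the threshold: 0 of 8 passed with it in both models, and the adjusted p of Hmgcs1 in B16F10 was 0.0616. Over all genes, it called 765 genes in B16F10, against 50 without it. Same-numbered tumours deviated with correlations between -0.24 and 0.07 in B16mhgp100 and of -0.08 in B16F10, so the numbers are not taken to pair the tumours. TPM keeps no depth, so counting error of the low values, such as Lss in Aoah 4, is unknown.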
